A study of Mus musculus with 18 samples.

Results

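Endothelial cells of implanted breast tumours were compared with endothelial cells of spontaneous MMTV-PyMT breast tumours, both after PBS, the vehicle that served as control for the STING agonist cGAMP. The comparison rests on 6 of the 18 RNA-seq libraries of the series, 3 from implanted tumours and 3 from MMTV-PyMT tumours, taken by the tumour type and treatment in their labels. All hosts were female FVB mice. Implanted tumours grew in the mammary fat pad of wild-type FVB/NJ mice aged 8 to 9 weeks, from a cell suspension of MMTV-PyMT tumours that had been kept in culture for 2 days and was injected with Matrigel. The spontaneous tumours arose in FVB/N-Tg(MMTV-PyVT)634Mul/J mice treated from 9 weeks of age, in which the mouse mammary tumour virus promoter drives the polyoma middle T oncogene in mammary epithelium. Both tumour types therefore carried the same oncogene in the tumour cells, while the host mice differed: wild-type for the implanted tumours and transgenic for the spontaneous ones. The number of days between implantation and collection is not given for these libraries in the sources used here. PBS was injected into the tumour and tissue was taken 3 h later, and cells negative for the dead-cell dye and for CD45, the common leukocyte antigen, and positive for CD31 were sorted. Normal mammary fat pad endothelium after PBS, also 3 libraries, is quoted as a reference level. The study describes 3 mice per group from 3 independent experiments, but which library came from which experiment is not given, so p-values measure the spread between these libraries.

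A tumour vessel is built from endothelial cells that take on different roles. Tip cells lead a growing sprout, guided by VEGF and restrained by Notch signalling, and they deposit and remodel the basement membrane. Endothelial cells are also a target of interferons: STAT and IRF factors switch on antiviral genes, guanylate-binding proteins, antigen presentation and the chemokines that attract T cells. STING, encoded by Tmem173, is the sensor through which cGAMP starts a type I interferon response, and TNF acting on its receptor TNFR1 can drive endothelial apoptosis through caspase 8. The comparison asked how far these programmes already differed between the tumour types before any agonist was given.

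The 6 libraries held between 9184658 and 12055770 reads assigned to genes, a 1.31-fold range. Values are FPKM, fragments scaled for gene length and library size, on which 1 read on a gene of 1 kilobase was worth 0.0753 to 0.113 FPKM in these 6 libraries. Differences are given on the log2(FPKM + 1) scale as implanted minus MMTV-PyMT, which understates the change of genes of low level. A gene is called higher or lower where limma's adjusted p was under 0.05 and the difference was at least 1, that is 2-fold. Replicates correlated with Pearson's r of 0.983 to 0.985 across genes within the implanted group, 0.985 to 0.989 within the MMTV-PyMT group and 0.908 to 0.932 between the groups. No pair of replicates was a repeat of the same library, since their counts differed by 4.78 to 10.5 times the sampling variance per gene. Gm26917, a gene model on chromosome 17 annotated as a long non-coding RNA, held 12.7% to 13.5% of reads in the implanted libraries. In the MMTV-PyMT libraries it held 7.15% to 7.95%. Which transcripts gave the reads counted on this model was not tested.

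Of 13983 genes tested, 598 were higher in implanted tumour endothelium (4.28%) and 427 were lower (3.05%), 1025 in all (7.33%), so that 58.3% of the called genes were higher. With scaling by total reads in place of the deposited scaling 457 were higher and 592 lower, and 43.6% of the called genes were higher. Interferon-response genes, antigen presentation genes and T-cell chemokines were among the genes that were higher, together with tip-cell genes and some hypoxia-associated genes. Chil1, Car6, Scgb2b27 and Lalba, which encode secreted proteins, were among those that were lower by most. Without the fold limit 20.8% of the tested genes were higher and 24.6% lower, and list counts without the fold limit are to be read against these shares. Of the called genes, 93 were higher and 47 lower by at least 2 on the log2 scale, and 26 were higher and 12 lower by at least 3. The 3 implanted libraries lay wholly apart from the 3 MMTV-PyMT libraries in 1017 of the 1025 called genes. Such separation was common in the whole table, however: all 3 implanted libraries were above in 27.5% of tested genes and below in 30.9%. The median difference over all tested genes was -0.01.

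**Figure D1:**
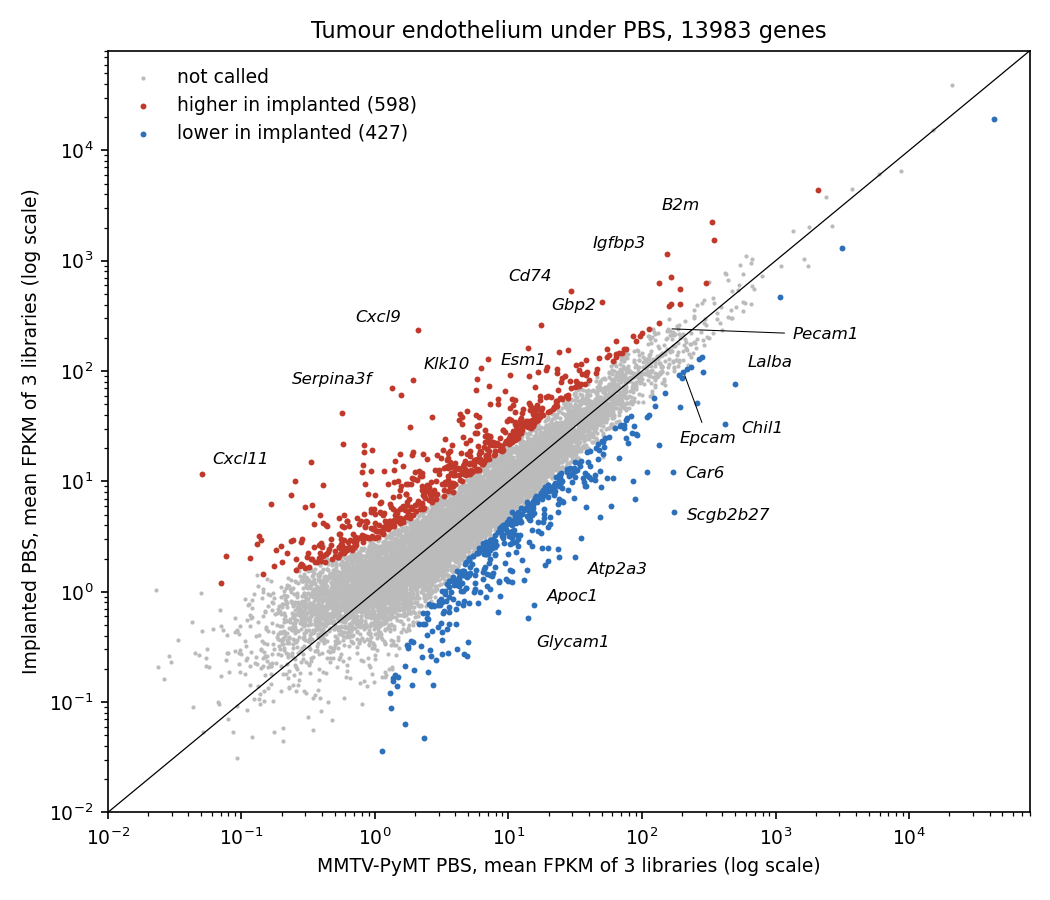
Mean FPKM of the 3 implanted PBS libraries (vertical, log scale) against that of the 3 MMTV-PyMT PBS libraries (horizontal, log scale) for the 13983 tested genes. Red points are the 598 genes called higher and blue points the 427 called lower in implanted tumour endothelium, and the line marks equal levels. Cxcl9 lies far above the line, with means of 2.09 (horizontal) and 235 FPKM (vertical).

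The levels of cell type markers in the sorted cells differed between the tumour types, and their values belong beside every result that follows. Pecam1, which encodes the sorted antigen CD31, was at 177, 153 and 138 FPKM in the MMTV-PyMT libraries and at 237, 268 and 221 in the implanted libraries, with no overlap. The summed FPKM of 25 pan-endothelial genes was 1600 to 2000 in the MMTV-PyMT and 2640 to 3320 in the implanted libraries. Epcam, an adhesion molecule of epithelial cells, was at 186, 212 and 213 FPKM in the MMTV-PyMT libraries and at 106, 81.6 and 109 in the implanted libraries. Epcam was thus at a level like that of Pecam1 in the MMTV-PyMT libraries, although the cells had been sorted for CD31. The summed FPKM of 20 tumour and mammary epithelial genes was 1880 to 2150 in the MMTV-PyMT and 1140 to 1590 in the implanted libraries, against 628 to 813 in normal fat pad endothelium. Ptprc, which encodes CD45, was between 0.262 and 0.333 FPKM in the MMTV-PyMT and between 0.37 and 1.09 in the implanted libraries, with no overlap. Its difference of 0.47 did not pass the test (adjusted p = 0.525, limma). The test took its spread from all 18 libraries, and the log2(FPKM + 1) scale narrows differences at such low levels. The result therefore does not show equal leukocyte content.

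Among the 25 pan-endothelial genes, 6 were called higher (Icam2, Flt1, Robo4, Sox18, Eng and Egfl7) and none lower, with a median difference of 0.65. Egfl7 was not called without implanted replicate 2 (0.89) or MMTV-PyMT replicate 3 (0.93), nor Sox18 without implanted replicate 2 (0.97). Without the fold limit, 17 of the 25 were higher at an adjusted p under 0.05 and 1 was lower. Cdh5, the junctional VE-cadherin, was at 325, 277 and 271 FPKM in the MMTV-PyMT libraries and at 438, 502 and 391 in the implanted libraries. Its difference of 0.60 (SE 0.17, adjusted p = 0.00978, limma) passed the test but not the fold limit. In bulk samples fewer cells of a type and less RNA per cell cannot be told apart. A fit was therefore added after the data were seen, in which each library was shifted so that the mean of the pan-endothelial list was equal in all libraries. This endothelial centring lowered every difference by 0.69, and it left 147 genes higher (1.05%) and 3421 lower (24.5%). List counts after endothelial centring are to be read against these shares, and called counts before it against 4.28% and 3.05%. Since the shift is the same for all genes, it acts as a higher limit for genes that were higher, of which 147 of 598 passed it, and a lower limit for genes that were lower, which could only stay lower. Counts after endothelial centring show which differences exceeded that of the endothelial markers by a further 2-fold, and they do not tell composition and regulation apart.

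**Figure D2:**
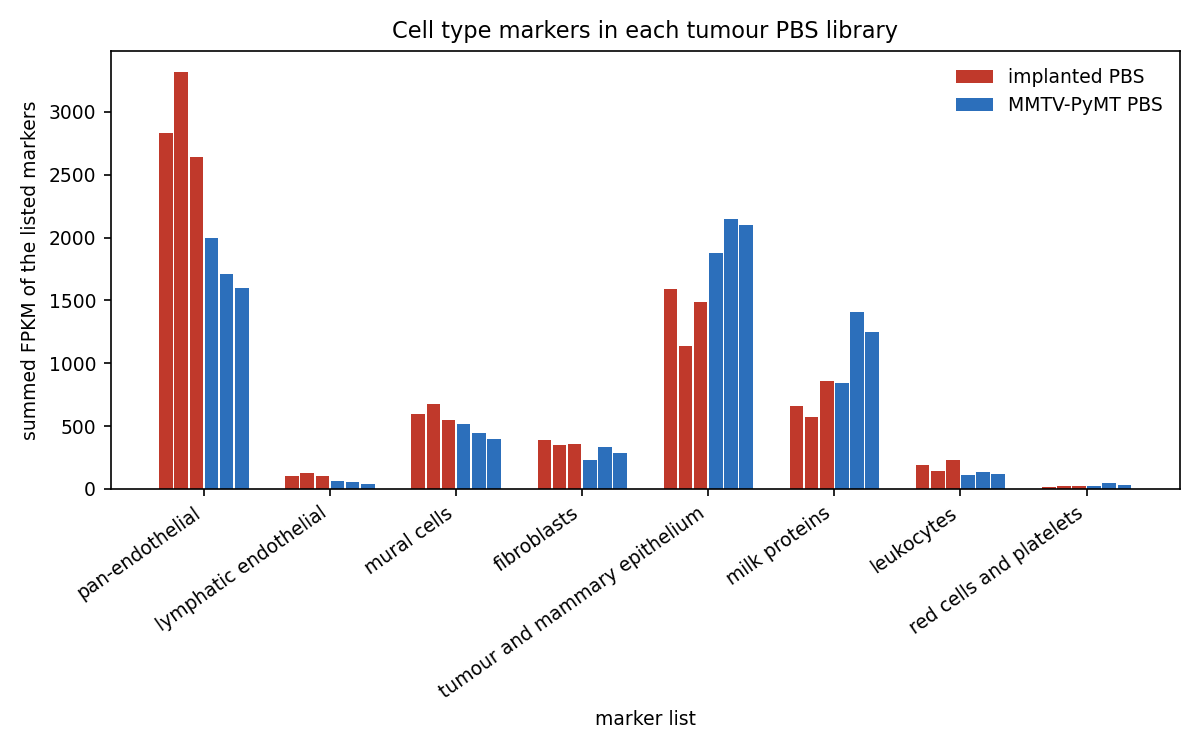
Summed FPKM of the listed markers of each cell type in each of the 3 implanted PBS libraries (red bars) and 3 MMTV-PyMT PBS libraries (blue bars). The pan-endothelial sum was 2640 to 3320 in implanted and 1600 to 2000 in MMTV-PyMT libraries, and the epithelial sum was 1140 to 1590 and 1880 to 2150.

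Interferon-gamma response genes had the highest median difference of the 44 lists. Of 32 tested members, 27 were called higher in implanted tumour endothelium (84.4%, against 4.28% of all tested genes) and none lower, with a median difference of 2.71 against -0.01 over all tested genes. After endothelial centring 24 of the 32 were still called higher. Cxcl9, a chemokine that attracts activated T cells (chromosome 5, 92321347 to 92328079, mm10), was at 2.20, 1.74 and 2.32 FPKM in the MMTV-PyMT libraries and at 289, 213 and 201 FPKM in the implanted libraries. The difference of 6.24 (SE 0.31, adjusted p = 1.9e-09, limma) was the largest called difference on this scale, and it rested on 57 to 89 reads against 5694 to 8155 reads. Cxcl10, which binds the same receptor, was at 1.17, 0.778 and 0.524 FPKM against 24.9, 16 and 14.5. Cxcl11, the third ligand of that receptor, was between 0.0199 and 0.083 FPKM in the MMTV-PyMT and between 9.55 and 15.2 FPKM in the implanted libraries. In normal fat pad endothelium these 3 chemokines averaged 5.07, 1.07 and 0.0919 FPKM, so that the implanted libraries stood above both other groups.

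Interferon-inducible GTPases, which attack vacuoles of intracellular microbes, moved together. Igtp was at 5.48, 7.53 and 5.84 FPKM in the MMTV-PyMT and at 122, 88.3 and 112 FPKM in the implanted libraries, a difference of 3.89 (SE 0.18). Tgtp1 was at 0.525, 0.622 and 0.584 FPKM against 25.4, 18.3 and 22.1. The guanylate-binding protein gene Gbp2 was at 17.0, 18.9 and 16.2 FPKM against 327, 225 and 238, a difference of 3.83 (SE 0.20). The groups did not overlap in any of these 3 genes. Gbp5 differed by 3.61, Gbp3 by 3.01, Gbp4 by 2.89, Gbp9 by 2.80 and Gbp7 by 2.48. The serine protease inhibitors Serpina3f and Serpina3g differed by 4.93 and 4.76, and Ly6a, an antigen of the endothelial surface, went from 49.9 ± 5.99 to 422 ± 81.6 FPKM (SD, n = 3). Family members share sequence, so the division of reads among the Gbp, Serpina3 and H2-Q genes is uncertain.

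Type I interferon response genes were higher in 32 of 38 tested members (84.2%) and lower in none, with a median difference of 1.67, and 18 were still called after endothelial centring. Isg15, a ubiquitin-like modifier, was at 4.18, 11.5 and 6.16 FPKM in the MMTV-PyMT libraries and at 66.5, 42.6 and 41.7 FPKM in the implanted libraries. Irf7, the factor that amplifies type I interferon production, was at 3.83, 19.2 and 7.67 FPKM against 68.5, 34.9 and 35.4. The spread of Isg15 and Irf7 among the MMTV-PyMT libraries was wide, with replicate 2 the highest in both, but no library crossed into the implanted range. Zbp1, Oasl2 and Ifit3 differed by 2.66, 2.57 and 2.5. Mx1 had the smallest difference of the list at 0.29 (adjusted p = 0.126, limma).

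The interferon receptor subunits did not reach the fold limit: Ifngr1 differed by 0.26 (adjusted p = 0.05), Ifngr2 by 0.15 (adjusted p = 0.362), Ifnar1 by 0.23 (adjusted p = 0.0923) and Ifnar2 by 0.33 (adjusted p = 0.00397), all by limma. Ifnar2 was thus higher, by less than the fold limit, and the other receptor genes did not pass. These 4 differences turned negative after endothelial centring, at -0.43, -0.53, -0.45 and -0.36. Of 24 interferon and cytokine receptor and signalling genes, 2 were called higher, among them Stat2, and Stat5a, a factor that also carries the prolactin signal in mammary epithelium, was called lower. After endothelial centring 1 was called higher and 3 lower. Stat5a was at 13.0, 15.4 and 16.7 FPKM in the MMTV-PyMT and at 5.96, 4.27 and 5.33 in the implanted libraries. Socs1, a feedback inhibitor of interferon signalling, was at 1.53, 0.857 and 0.920 FPKM against 7.03, 5.75 and 6.4, so the inhibitor was higher too. No interferon ligand gene was among the deposited genes, so the ligands could not be tested.

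The promoters of these genes were searched for sequences through which interferons are known to act. An interferon-stimulated response element (ISRE) binds IRF factors and the complex of STAT proteins with IRF9, and a gamma-activated site (GAS) binds STAT dimers. Promoter windows of 250 bases before and 50 after the start were taken from RefSeq (GRCm38.p6) and searched on both strands for the ISRE core, which is GAAA and GAAA with any 2 bases between, and for the GAS letters TTCNNNGAA, where N is any base. A window was found for 371 of the 598 higher, 298 of the 427 lower and 9831 of all tested genes. The ISRE core was in 9.75% of 472 windows of higher genes, in 0.983% of 407 windows of lower genes and in 3.07% of 12584 windows of all tested genes. The GAS letters were in 9.11%, 6.88% and 6.86% of the same windows. Among the lists, the ISRE core was in 15 of 30 windows of type I interferon genes, in 11 of 31 windows of interferon-gamma genes and in 5 of 21 windows of MHC class I genes. Either set of letters was in 56.7% of the windows of type I interferon genes and in 51.6% of those of interferon-gamma genes, so many windows held neither. The lists were drawn up as interferon-response genes, so these shares are a description of them. Matches to the ISRE core and to the GAS letters overlapped in 2 windows of higher genes and in 13 windows of all tested genes.

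The windows of 5 genes are shown in full because they hold these letters in genes that differed strongly, with matches in capitals and each read 5′ to 3′ in the direction of its gene. The Gbp5 window (chr3:142496684-142496983, plus strand) holds 1 ISRE core and 2 GAS matches, and the Igtp window (chr11:58199306-58199605, plus strand) holds 1 of each, starting 34 and 45 bases before the start of the gene. The Gbp2 window (chr3:142620413-142620712, plus strand) and the B2m window (chr2:122147437-122147736, plus strand) hold 1 ISRE core each, the first on the opposite strand. The Isg15 window (chr4:156200769-156201068, minus strand) holds 3 overlapping ISRE cores that start 78, 72 and 66 bases before the start.
Gbp5: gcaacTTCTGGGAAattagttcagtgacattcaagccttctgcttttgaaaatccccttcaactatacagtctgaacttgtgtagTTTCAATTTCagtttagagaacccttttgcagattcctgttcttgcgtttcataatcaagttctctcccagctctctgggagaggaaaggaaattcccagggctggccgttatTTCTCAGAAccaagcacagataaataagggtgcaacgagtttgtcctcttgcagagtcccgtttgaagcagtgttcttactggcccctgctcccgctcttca
Igtp: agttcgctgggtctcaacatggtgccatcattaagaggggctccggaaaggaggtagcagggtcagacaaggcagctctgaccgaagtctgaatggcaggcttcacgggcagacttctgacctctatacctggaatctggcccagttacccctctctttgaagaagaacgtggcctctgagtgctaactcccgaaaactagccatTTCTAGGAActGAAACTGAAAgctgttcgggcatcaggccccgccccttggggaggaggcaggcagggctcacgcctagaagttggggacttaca
Gbp2: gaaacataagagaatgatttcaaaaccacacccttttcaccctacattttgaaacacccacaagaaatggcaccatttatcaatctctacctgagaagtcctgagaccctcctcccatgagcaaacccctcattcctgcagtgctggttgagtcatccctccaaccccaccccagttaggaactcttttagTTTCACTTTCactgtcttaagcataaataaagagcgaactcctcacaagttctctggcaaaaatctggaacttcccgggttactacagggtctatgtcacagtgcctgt
B2m: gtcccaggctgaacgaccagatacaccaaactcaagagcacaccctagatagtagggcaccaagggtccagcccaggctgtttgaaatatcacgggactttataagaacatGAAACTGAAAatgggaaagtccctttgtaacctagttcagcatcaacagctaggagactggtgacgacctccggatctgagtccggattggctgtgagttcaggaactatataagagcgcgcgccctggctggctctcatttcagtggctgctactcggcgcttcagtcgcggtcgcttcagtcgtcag
Isg15: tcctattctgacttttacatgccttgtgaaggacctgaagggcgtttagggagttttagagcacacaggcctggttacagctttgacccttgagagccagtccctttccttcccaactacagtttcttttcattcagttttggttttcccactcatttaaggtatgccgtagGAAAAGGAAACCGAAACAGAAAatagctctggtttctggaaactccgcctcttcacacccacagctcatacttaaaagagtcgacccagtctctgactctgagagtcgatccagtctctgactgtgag
The Cxcl9 window (chr5:92328030-92328329, minus strand) holds neither set of letters, which says only that they are absent from these 300 bases.

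Antigen presentation genes followed. Of 23 tested genes of MHC class I and peptide loading, 17 were called higher and none lower, with a median difference of 1.71, and all 23 were higher without the fold limit. After endothelial centring 12 were called higher. B2m, the light chain shared by all class I molecules, was at 310, 387 and 300 FPKM in the MMTV-PyMT and at 2480, 1970 and 2240 FPKM in the implanted libraries (difference 2.75, SE 0.14, adjusted p = 1.9e-09, limma). The heavy chains H2-K1 and H2-D1 went from 135 to 632 and from 347 to 1530 FPKM on average, which put them among the 10 called genes with the largest difference in mean FPKM. Tap1, the peptide transporter, was at 7.4, 9.91 and 7.58 FPKM against 58.0, 45.3 and 46.9. Nlrc5, the transactivator of class I genes, was at 0.905, 0.793 and 0.686 FPKM against 12.7, 10.6 and 13.0. The general chaperones of the same loading pathway differed by less: Calr by 0.36 and Pdia3 by 0.23.

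Of 11 tested MHC class II genes, 8 were called higher and none lower, with a median difference of 1.68, and after endothelial centring 5 were called higher and 1 lower. Cd74, the invariant chain that escorts class II molecules, was at 24.3, 33.5 and 29.9 FPKM in the MMTV-PyMT and at 545, 409 and 629 FPKM in the implanted libraries (difference 4.12, SE 0.50, adjusted p = 1.09e-05, limma). H2-Ab1 was at 4.4, 6.14 and 6.90 FPKM against 84.4, 66.6 and 105. Ciita, the class II transactivator, was at 0.735, 0.590 and 0.603 FPKM against 4.75, 3.03 and 3.94. Class II genes are also abundant in macrophages and other leukocytes, and the summed FPKM of 18 leukocyte genes was 113 to 136 in the MMTV-PyMT and 141 to 226 in the implanted libraries. Within the implanted group both Cd74 and that sum were lowest in replicate 2 and highest in replicate 3. None of the 17 tested leukocyte genes was called by limma, 1 was higher without the fold limit, and their median difference was 0.53. In 6 of the 17 all 3 implanted libraries were above all 3 MMTV-PyMT libraries, as in 27.5% of all tested genes, and in none were they all below. The lack of calls does not show equal leukocyte content. Lyz2, a macrophage lysozyme, was at 11.6, 20.8 and 17.0 FPKM against 30.9, 19.4 and 49.6. The part of leukocyte RNA in the class II difference was not tested.

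At several places neighbouring genes were higher together, and how many such runs would arise by chance was not tested. The longest run of adjacent tested genes called in the same direction had 7 members in the MHC region (chromosome 17, 34119541 to 34216321): H2-DMa, H2-DMb2, H2-DMb1, Psmb9, Tap1, Psmb8 and Tap2. Runs of 5 lay at the Gbp cluster on chromosome 3 (142493978 to 142638008) and at the Tgtp1 and Ifi47 cluster on chromosome 11 (48978889 to 49187159). Another run of 5, on chromosome 5 (66298703 to 66618784), held Apbb2 and the gene models Gm43790, Gm23183, Gm43793 and Gm16273. The Serpina3 cluster on chromosome 12 (104214544 to 104269372) held 4 adjacent higher genes. Other runs of 4 lay on chromosomes 8, 16, 17 and 18, the first holding Efnb2 and neighbouring gene models. No run of 4 or more lower genes was found. Neighbouring genes that overlap can share reads, since the use of strand in counting is not given in the sources used here.

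Chemokines and immune checkpoint genes were higher in part. Of 20 tested chemokines and chemokine receptors of the atypical kind, 9 were called higher and none lower, and after endothelial centring 5 were called higher and 2 lower. Beside the Cxcr3 ligands these were Ackr2, Ccl8, Ccl5, Cxcl2, Cxcl1 and Cxcl16. Of 17 tested immune checkpoint and tolerance genes, 7 were called higher, led by Cd274, which encodes PD-L1. Cd274 was at 0.915, 0.841 and 0.782 FPKM in the MMTV-PyMT and at 13.2, 6.05 and 8.97 FPKM in the implanted libraries (difference 2.44, SE 0.24, adjusted p = 1.82e-06, limma). Cd274 was the only member of this list called higher after endothelial centring, when Vtcn1 was called lower.

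**Figure D3:**
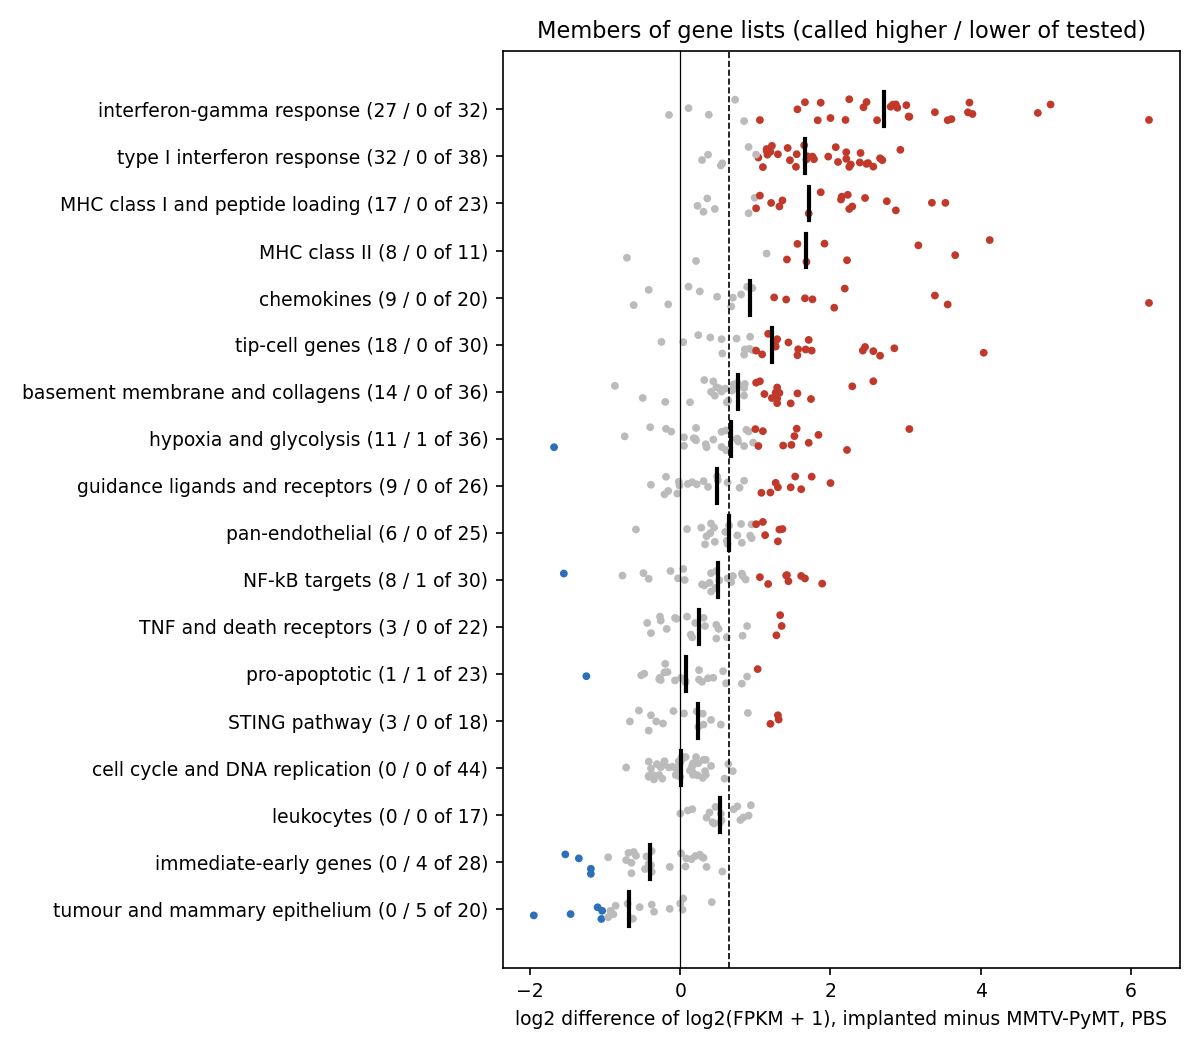
Difference of log2(FPKM + 1), implanted minus MMTV-PyMT under PBS, for each tested member of 18 gene lists. Red and blue points are members called higher and lower, grey points were not called, thick bars are medians, the solid line marks 0 and the dashed line the pan-endothelial median of 0.65. The interferon-gamma list has its median at 2.71 and the epithelial list at -0.68.

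Tip-cell genes were also higher. Of 30 tested members, 18 were called higher and none lower, with a median difference of 1.22, and 8 were still called after endothelial centring: Esm1, Igfbp3, Angpt2, Kcne3, Apln, Cxcr4, Unc5b and Adm. Esm1, a proteoglycan secreted by sprouting tips (chromosome 13, 113209659 to 113218098, mm10), was at 4.85, 8.40 and 7.81 FPKM in the MMTV-PyMT and at 136, 107 and 143 FPKM in the implanted libraries (difference 4.04, SE 0.29, adjusted p = 5.81e-08, limma). Igfbp3, a carrier of insulin-like growth factors, was at 164, 152 and 147 FPKM against 1310, 1210 and 896. Angpt2, the Tie2 ligand that loosens vessels, averaged 9.48 FPKM in the MMTV-PyMT libraries against 76, 61.4 and 59.8 in the implanted libraries. In normal fat pad endothelium these genes averaged 10.9, 36.9 and 14.5 FPKM. The MMTV-PyMT libraries were thus below the normal mean in Esm1 and Angpt2, while for Igfbp3 both tumour types lay above it.

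The chemokine receptor Cxcr4 was at 28.2, 27.4 and 28.1 FPKM in the MMTV-PyMT and at 157, 165 and 143 in the implanted libraries, a difference of 2.43 (SE 0.22). Apln, the peptide apelin made by tip cells, was at 16.2, 17.6 and 16 FPKM against 119, 108 and 69.8, whereas its receptor gene Aplnr, a gene of the stalk and venous side, averaged 110 FPKM against 95.8. Dll4, the Notch ligand of tip cells, was at 64.5, 49.3 and 50.0 FPKM against 139, 147 and 112, and its difference of 1.27 was not called after endothelial centring. Mcam, a tip-cell gene at 1.01, is also a member of the mural list, and it was not called without implanted replicate 1 (0.97) or 2 (0.88), without MMTV-PyMT replicate 2 or 3 (0.95), or after endothelial centring (0.32).

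Receptors and ligands of the VEGF and angiopoietin families followed. Of 9 tested VEGF family genes, 3 were called higher and none lower. Vegfa, the main ligand, was at 2.99, 3.32 and 2.09 FPKM in the MMTV-PyMT and at 14.1, 9.65 and 14.1 FPKM in the implanted libraries, a difference of 1.84 (SE 0.19) that was still called after endothelial centring. Flt1, a decoy receptor, was at 37.1, 29.3 and 29.3 FPKM against 82.6, 96.0 and 66.4, and Flt4, the VEGF-C receptor, differed by 1.48. Kdr, the main signalling receptor, was at 69.9, 60.2 and 57.3 FPKM against 126, 129 and 110. Its difference of 0.95 (SE 0.19, adjusted p = 0.000832, limma) stayed under the fold limit and passed it, at 1.03 and 1.04, without implanted replicate 3 and without MMTV-PyMT replicate 1. Leaving out MMTV-PyMT replicate 1 brought the family's count of called members to 5. Tek, which encodes the Tie2 receptor, went the other way at 38.0, 33.3 and 29.3 FPKM against 18.8, 29.7 and 18.5, a difference of -0.59 (adjusted p = 0.0123, limma). Angpt1, the ligand that keeps vessels quiet, averaged 3.18 FPKM against 1.68 (difference -0.65, adjusted p = 0.000781, limma). Tek and Angpt1 were called lower only after endothelial centring, at -1.28 and -1.34.

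Other endothelial programmes were mixed. Of 19 tested Notch pathway genes, 4 were called higher (Notch4, Mfng, Dll4 and Jag1) and none lower, and after endothelial centring Notch4 was called higher and 2 were called lower. Notch4 was at 27.1, 24.6 and 23.8 FPKM in the MMTV-PyMT and at 87.4, 95.4 and 77.3 in the implanted libraries. Of 21 arterial genes, 4 were called higher and Eln, which encodes elastin, lower at -1.11. Eln was not called without implanted replicate 1 or MMTV-PyMT replicate 3, at -0.92 each. After endothelial centring 2 arterial genes were called higher and 3 lower, against 1.05% and 24.5% of all tested genes. Gja5, the arterial connexin 40, was at 1.27, 1.19 and 1.05 FPKM against 12.5, 12.7 and 11.7, and Edn1, which encodes the vasoconstrictor endothelin 1, averaged 3.42 FPKM against 13.6. Both stayed below normal fat pad endothelium, at 32.8 and 46.7 FPKM.

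Adhesion molecules of veins diverged. Of 21 tested genes of this list, 3 were called higher and 3 lower, and after endothelial centring 2 were higher and 8 lower. Vcam1, which holds leukocytes by their integrins, was at 2.86, 1.70 and 1.68 FPKM in the MMTV-PyMT and at 11.7, 8.86 and 10.3 FPKM in the implanted libraries (difference 1.89, SE 0.25, adjusted p = 2.04e-05, limma). Sele, the selectin on which leukocytes roll, was at 38.3, 18.2 and 14.7 FPKM against 5.11, 8.88 and 6.74 (difference -1.55, SE 0.34, adjusted p = 0.00164, limma). Selp, the related P-selectin, was at 45.3, 29.6 and 24.3 FPKM against 12.8, 28.8 and 16.1, so its groups overlapped and its difference of -0.78 did not reach the fold limit. Icam1 differed by 0.41 (adjusted p = 0.13, limma). Glycam1, the lower gene with the largest difference in this list at -3.11, is a ligand of L-selectin on high endothelial venules and is also made by mammary epithelium. Its level was 23.1, 13.3 and 5.76 FPKM against 0.151, 0.529 and 1.04.

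Genes of the vessel wall were higher in part. Of 36 tested basement membrane and collagen genes, 14 were called higher and none lower, with a median difference of 0.77 that fell to 0.08 after endothelial centring, when 3 were called higher and 2 lower. Fibronectin, Fn1, was at 14.3, 15.9 and 12.6 FPKM in the MMTV-PyMT and at 85.5, 96.2 and 86.7 FPKM in the implanted libraries (difference 2.57, SE 0.23, adjusted p = 6.26e-07, limma). Tnc, the matrix glycoprotein tenascin C, was at 3.76, 7.97 and 5.84 FPKM against 32.3, 30.8 and 31.4. Col4a1, the main collagen of the membrane, was abundant in both, at 687, 656 and 611 FPKM against 940, 1070 and 857, with a difference of 0.55 under the fold limit. Of 18 integrin genes 4 were called higher, among them Itgb3 at 1.55 and Itga5 at 1.45, which bind fibronectin and other matrix proteins. Itgb8 was called lower at -1.13, and was not called without implanted replicate 2, where its difference fell just short of the fold limit. After endothelial centring no integrin was called higher and 3 were called lower, against 1.05% and 24.5% of all tested genes. Of 26 guidance genes 9 were called higher, with Sema3f at 2 and Unc5b at 1.75 kept after endothelial centring.

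Hypoxia and glycolysis genes were higher in part. Of 36 tested members, 11 were called higher and 1 lower, with a median difference of 0.68 that became -0.01 after endothelial centring, when 4 were called higher and 3 lower. Slc16a3, the lactate exporter MCT4, was at 0.779, 1.08 and 0.607 FPKM in the MMTV-PyMT and at 14.2, 17.6 and 10.9 FPKM in the implanted libraries (difference 3.05, SE 0.16, adjusted p = 3.22e-09, limma). P4ha1, a prolyl hydroxylase of collagen, was at 5.79, 6.64 and 5.59 FPKM against 23.4, 32.8 and 41.2. Car12, a carbonic anhydrase, was the lower member at 36.9, 32.0 and 39.7 FPKM against 12.9, 7.95 and 11.4, and normal endothelium averaged 0.304 FPKM. Hif1a itself, whose product is controlled mainly by its stability, differed by 0.18 (adjusted p = 0.249, limma). The core of the hypoxia response element, ACGTG, was in 26 of 46 windows of this list, against 16.3% of windows of all higher genes and 25% of windows of all tested genes.

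**Figure D4:**
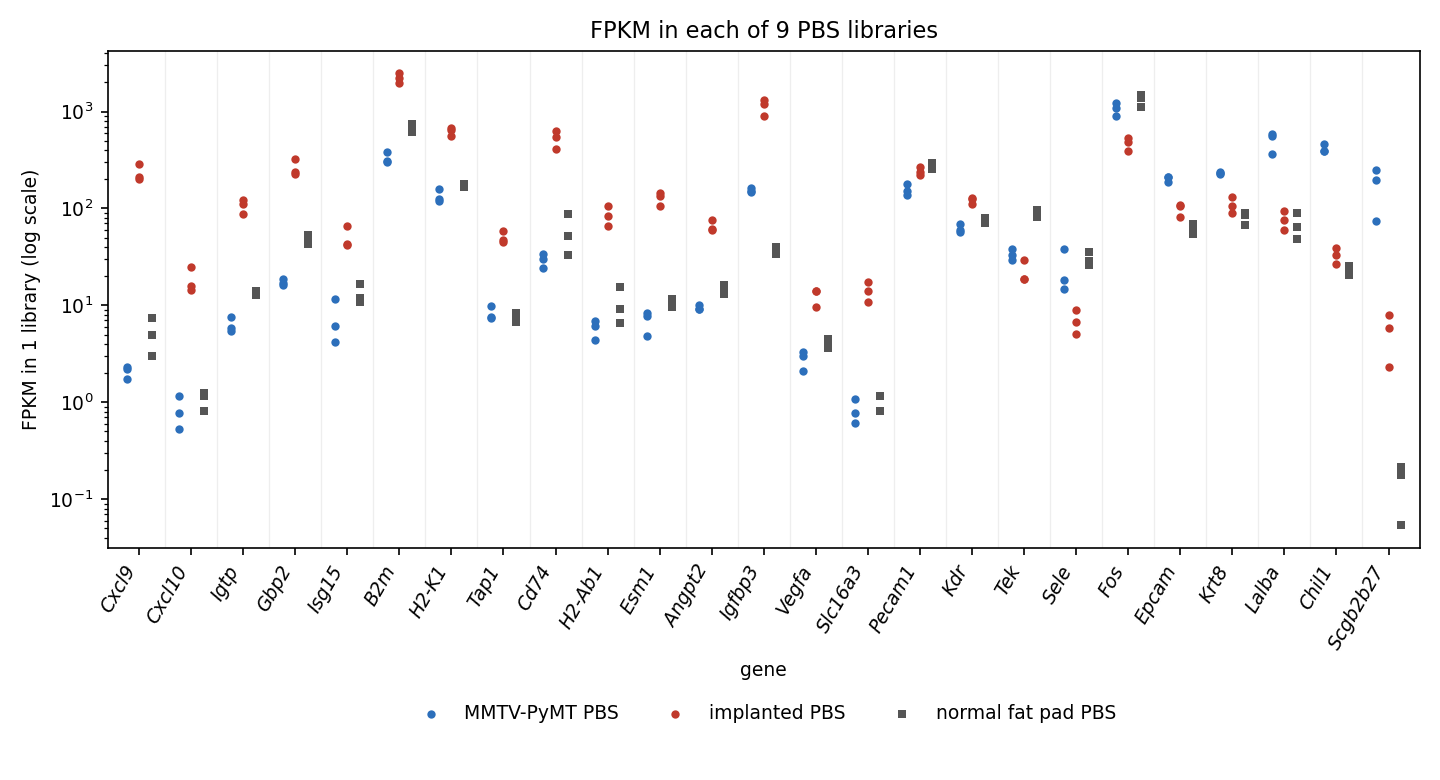
FPKM of 25 genes in each MMTV-PyMT PBS library (blue), implanted PBS library (red) and normal fat pad PBS library (grey squares), on a log scale. Cxcl9, Igtp, B2m and Esm1 lie in separate ranges in the tumour types. The genes at the right, from Epcam on, lie the other way round, as do Sele and Fos.

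Genes that bear on the response to cGAMP were examined in their state under PBS. Of 18 tested STING pathway genes, 3 were called higher (Lrrc8c, Ifi204 and Tmem173), 16.7% against 4.28% of all tested genes, and none lower. After endothelial centring none was called higher and 5 were called lower, where 24.5% of all tested genes were lower. Tmem173, which encodes STING, was at 17.1, 16 and 12.9 FPKM in the MMTV-PyMT and at 34.2, 40.6 and 34.8 FPKM in the implanted libraries (difference 1.20, SE 0.15, adjusted p = 1.08e-05, limma). Lrrc8c, a subunit of the volume-regulated anion channel through which cGAMP can pass, averaged 13.1 FPKM against 33.9. Cgas, the DNA sensor that makes cGAMP, differed by 0.22 (adjusted p = 0.167, limma).

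Genes of TNF signalling and apoptosis were mostly under the fold limit. Of 22 tested TNF and death receptor genes, 3 were called higher and none lower: Tnfsf10, which encodes the death ligand TRAIL, and Ripk3 and Mlkl, which execute necroptosis. Mlkl was at 5.40, 5.89 and 4.92 FPKM in the MMTV-PyMT and at 15.1, 14.5 and 13.9 in the implanted libraries, and Ripk3 at 6.71, 5.52 and 4.46 against 13.2, 20.2 and 13.5. None of the 3 was called after endothelial centring, when 2 others of the list were called lower, against 24.5% of all tested genes. Without the fold limit 9 of the 22 were higher and 2 lower, against 20.8% and 24.6% of all tested genes. Tnf was at 5.52, 3.43 and 4.03 FPKM against 10.3, 6.06 and 10.6, a difference of 0.89 (SE 0.27, adjusted p = 0.0127, limma) under the fold limit. Tnfrsf1a, which encodes TNFR1, was at 77.0, 71.8 and 73.3 FPKM against 74.7, 87.2 and 75.9, with overlapping groups and a difference of 0.09 (95% interval -0.12 to 0.31). Its sign turned under other scalings. Tnfrsf1b, the second TNF receptor, differed by 0.83 (adjusted p = 0.000863, limma).

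Of 23 tested pro-apoptotic genes, Bak1 was called higher and Bmf lower, shares near those of all tested genes (4.28% and 3.05%). Without the fold limit 8 of the 23 were higher and 4 lower, against 20.8% and 24.6% of all tested genes. After endothelial centring none was called higher and 3 lower, against 1.05% and 24.5% of all tested genes. Bak1, a pore-forming protein of the mitochondrion, was at 12.9, 16.7 and 16.3 FPKM in the MMTV-PyMT and at 34.7, 30.7 and 30.9 in the implanted libraries. Its difference of 1.03 lay at the fold limit and fell to 0.97 without implanted replicate 1 and to 0.92 without MMTV-PyMT replicate 1. Bax, its partner, differed by 0.89 (adjusted p = 1.08e-05, limma), and Apaf1, the apoptosome scaffold, by 0.61 (adjusted p = 0.0234, limma). Casp8 was at 18.6, 18.3 and 15.4 FPKM against 28.3, 28.9 and 22.1 (difference 0.57, adjusted p = 0.00677, limma). Casp9 differed by -0.17 (adjusted p = 0.0981, limma). Bid, which links caspase 8 to the mitochondrion, was lower by less than the fold limit at -0.52 (adjusted p = 0.00488, limma). No anti-apoptotic BCL2 family gene of 6 tested was called by limma, and none of them had an adjusted p under 0.05.

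Of 25 tested PI3K-AKT-mTOR genes, 2 were called higher (8%, against 4.28% of all tested genes), among them Inpp5d. After endothelial centring none was called higher and 5 were called lower, where 24.5% of all tested genes were lower. Akt1, a kinase of survival signals, differed by 0.27 (adjusted p = 0.0246, limma), from 40.2, 46.5 and 46.7 to 51.3, 59.6 and 50.6 FPKM. Akt2 differed by -0.17 (adjusted p = 0.134, limma). Inpp5d, a lipid phosphatase, differed by 1.04 and was not called without implanted replicate 2 (0.94) or MMTV-PyMT replicate 2 (0.98) or 3 (0.99).

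Cell cycle genes showed no called difference. None of 44 tested cell cycle and DNA replication genes was called by limma, 2 were higher and 3 lower without the fold limit (against 20.8% and 24.6% of all tested genes), and the median difference was 0.01. Mki67, a marker of cycling cells, was at 11, 13.3 and 11 FPKM in the MMTV-PyMT and at 7.45, 11.8 and 9.74 in the implanted libraries (95% interval of the difference -0.80 to 0.25). Top2a was at 10.1, 10.6 and 11.1 FPKM against 12, 16.9 and 12.8. Both tumour types were above normal fat pad endothelium, where Mki67 averaged 3.65 and Top2a 3.93 FPKM. After endothelial centring 7 of the 44 were called lower and none higher, against 24.5% and 1.05% of all tested genes.

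Of 30 tested NF-kB targets, 8 were called higher and 1, Sele, lower, and 16 were higher and 3 lower without the fold limit. After endothelial centring 1 was called higher and 4 lower, against 1.05% and 24.5% of all tested genes. The kappa-B letters, GGGA and TTCC with any 2 bases between, were in 15 of 472 windows of higher genes (3.18%). They were in 1.23% of windows of lower genes and 1.55% of all windows. Their share among the NF-kB targets themselves was not taken. Of immediate-early genes, which respond within minutes to growth factors, 4 of 28 were called lower and none higher, with a median difference of -0.41, and 13 were lower without the fold limit (24.6% of all tested genes were). After endothelial centring 17 of the 28 were called lower, against 24.5% of all tested genes. Fos was at 1240, 897 and 1090 FPKM in the MMTV-PyMT and at 538, 395 and 482 in the implanted libraries (difference -1.19, SE 0.15, adjusted p = 1.42e-05, limma). Btg2, an antiproliferative gene, was at 308, 265 and 284 FPKM against 94.2, 88.6 and 113, and Nr4a1, an orphan nuclear receptor, at 149, 107 and 120 against 50.8, 45.1 and 48.1. The groups did not overlap in any of these 3 genes.

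Some genes of the mammary epithelium were lower. Of 20 tested genes of tumour and mammary epithelium, 5 were called lower (Krt5, Prom1, Krt8, Epcam and Krt18) and none higher, with a median difference of -0.68, and 15 were called lower after endothelial centring, against 24.5% of all tested genes. Krt8, a keratin of luminal epithelium, was at 225, 232 and 236 FPKM in the MMTV-PyMT and at 131, 88.9 and 105 FPKM in the implanted libraries. Without implanted replicate 2, which had the lowest epithelial sum of the 6 libraries, 2 of the 20 were called lower, and Krt8, Krt18 and Epcam stood at -0.97, -0.90 and -0.92. Lcn2, a lipocalin of the same list, was at 439, 581 and 553 FPKM against 566, 427 and 638, with a difference of 0.04, so not all epithelial genes were lower.

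Among the 15 genes with the largest falls, Scgb2b27, which encodes a secretoglobin, was at 73.7, 251 and 197 FPKM in the MMTV-PyMT and at 7.90, 2.30 and 5.80 FPKM in the implanted libraries (difference -4.73, SE 0.45, adjusted p = 1.23e-06, limma). Car6, a secreted carbonic anhydrase, was at 102, 162 and 245 FPKM against 17.5, 5.22 and 13.8. Chil1, a secreted chitinase-like protein (chromosome 1, 134182176 to 134190181, mm10), was at 396, 388 and 460 FPKM against 32.8, 27.0 and 39.0 (difference -3.62, SE 0.20). Lalba, the milk protein alpha-lactalbumin, was at 361, 583 and 560 FPKM against 94.0, 59.5 and 76.4. These falls were 12.6-fold for Chil1 and 6.54-fold for Lalba in mean FPKM, against 2.06-fold for Epcam. Gjb2, the gap junction protein connexin 26 of secretory epithelium, was lower by 3.21, and Cldn2, a claudin of leaky epithelia, by 2.85. Of 7 tested milk protein genes, Lalba and Glycam1 were called lower and Csn1s1 higher, and the summed FPKM of the list overlapped between the groups, at 840 to 1410 in the MMTV-PyMT and 570 to 860 in the implanted libraries. Csn1s1, a casein, was at 3.29, 26.4 and 12.4 FPKM against 105, 131 and 247, and Ltf, the milk protein lactoferrin, at 84.1, 253 and 161 against 790, 517 and 826. The part of epithelial RNA in these differences was not tested.

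Small non-coding RNAs also took part in the lower side. Of 105 tested, 16 were called lower and 8 higher, 15.2% and 7.62% against 3.24% and 4.10% of 11958 protein-coding genes. Snora73a, a small nucleolar RNA, was at 47.8, 80.6 and 46.8 FPKM in the MMTV-PyMT and at 7.31, 7.71 and 2.96 in the implanted libraries. Rmrp, the RNA of an endoribonuclease, averaged 3150 FPKM against 1310. RNAs shorter than the library fragments are poorly measured by FPKM.

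Mural and fibroblast genes were called in part. Of 15 tested mural genes 3 were called higher (Abcc9, Cspg4 and Mcam), and the summed FPKM of the list was 397 to 518 in the MMTV-PyMT and 549 to 676 in the implanted libraries. Of 15 fibroblast genes, Col1a1 was called higher at 1.05, and Lum and Dcn, which encode small proteoglycans of the stroma, were called lower at -1.74 and -1.27. Col1a1 was not called without replicate 1 of either group, at 0.98 without the implanted and 0.86 without the MMTV-PyMT library. After endothelial centring none of either list was called higher, and 2 mural and 8 fibroblast genes were called lower, against 24.5% of all tested genes.

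Normal fat pad endothelium places the difference. Of the 598 genes higher in implanted tumours, the normal PBS mean lay between the tumour types and nearer to MMTV-PyMT in 237 (39.6%), below both in 146 (24.4%), between them and nearer to implanted in 147 (24.6%) and above both in 68 (11.4%). Of the 427 lower genes, the normal mean lay below both in 180 (42.2%) and between them but nearer to implanted in 133 (31.1%). Among all tested genes 34.6% had the normal mean above both tumour types and 36.6% below both. It lay between them and nearer to MMTV-PyMT in 13.3%, and between them and nearer to implanted in 15.4%. Called genes have a wide gap between the tumour types by selection, which favours a normal mean between them. The top interferon genes had the normal mean between the types and nearer to MMTV-PyMT: Igtp averaged 13.2 FPKM and Gbp2 48.7 FPKM in normal endothelium.

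The same contrast was taken between the 6 cGAMP libraries, which share no library with the PBS comparison. Both contrasts came from 1 fit of all 18 libraries and share its estimate of each gene's spread, so their calls are not fully independent. Under cGAMP 981 genes were higher in implanted tumour endothelium (7.02%) and 470 were lower (3.36%). Of the 598 genes higher under PBS, 394 were also higher under cGAMP, 65.9% of the PBS and 40.2% of the cGAMP list, and 274 of the 427 lower genes were also lower, 64.2% and 58.3%. A test of the change in the difference, cGAMP minus PBS, called 258 genes as larger (1.85%) and 88 as smaller (0.629%). Of 32 interferon-gamma response genes, 10 had a smaller difference under cGAMP by this test and 3 a larger one. Igtp fell from a difference of 3.89 under PBS to 1.47 under cGAMP, and Cxcl9 from 6.24 to 3.60, whereas Cd74 was at 4.12 and 5.19, a change that was not called. Of 17 tested leukocyte genes, 14 were called higher in implanted endothelium under cGAMP, with a median difference of 1.61, against none under PBS. The summed FPKM of the 18 leukocyte genes was 182 to 670 in the implanted and 139 to 167 in the MMTV-PyMT cGAMP libraries. The part of leukocyte RNA in the cGAMP differences was not tested.

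**Figure D5:**
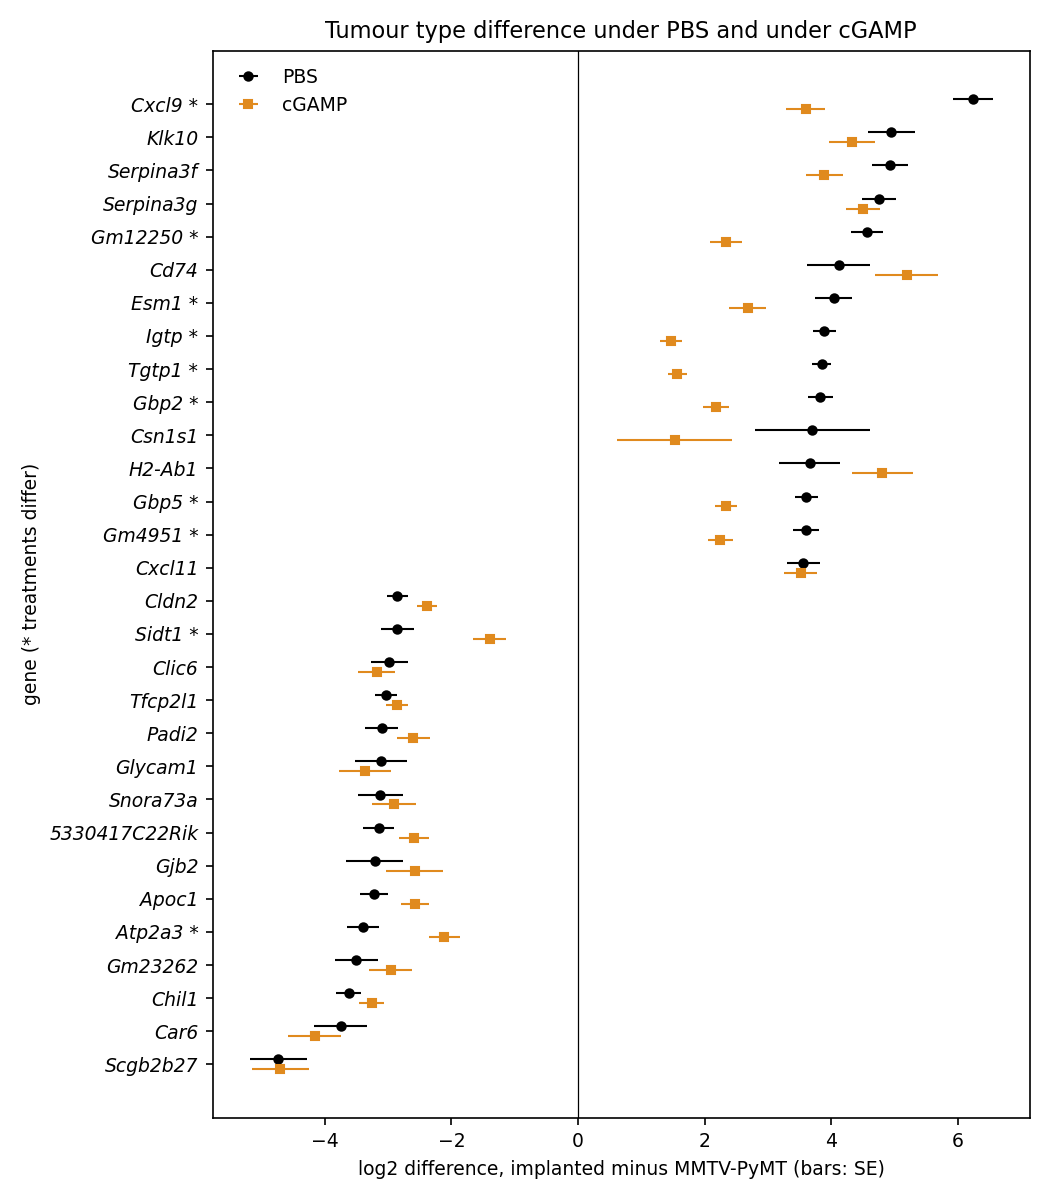
Difference of log2(FPKM + 1), implanted minus MMTV-PyMT, under PBS (black circles) and under cGAMP (orange squares) for the 15 genes with the largest rises and the 15 with the largest falls under PBS; bars are standard errors and a star marks genes whose difference changed between treatments. Cxcl9 moved from 6.24 to 3.60 and Igtp from 3.89 to 1.47, while Scgb2b27 stayed at -4.73 and -4.70.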

How the data were processed

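Groups were taken from the labels, and the control columns of the table were assigned to normal fat pad because no other tissue remained. Per the study's methods, the authors aligned directional 75-base paired reads to mm10 with STAR 2.7 and counted them with HTSeq. The authors deposited FPKM values for 16248 genes, with no value of 0 in any of 18 libraries, so a gene without reads in 1 library is missing from the table. Whole reads were recovered for 100.0% of genes (tolerance 0.02), and the denominators followed size factors. Values were tested as log2(FPKM + 1) for the 13983 genes at 1 FPKM or more in at least 3 libraries with limma 3.58.1 in R 4.3.3 (lmFit and eBayes with a trend, all 18 libraries, 1 mean per group, no covariate, 2-sided), with Benjamini-Hochberg adjustment over all tested genes. Named genes were the 15 largest rises and falls without overlap, the 10 largest differences of mean FPKM, the 4 largest called members of each of 44 lists with their defining members, and 20 fixed genes; a few others were chosen after their values were seen. Results for some of these genes are not reported here. The members and lists were chosen with earlier results of these data known. Gene positions come from GENCODE M21 (mm10), matched by symbol for 16045 genes, and 19 symbols had been turned into dates. Alternatives were another pseudocount, no filter or a stricter one, quantile normalization, scaling by total reads, voom on recovered reads, a replicate block, single libraries left out and, added after the data were seen, endothelial centring.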

Additional observations from a re-analysis of the deposited data

Results flagged for a closer look

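Of the 30 genes with the largest rises and falls under PBS, 10 were picked out because their difference between implanted and MMTV-PyMT endothelium changed between treatments, by limma's test of the difference under cGAMP minus the difference under PBS. The change was -2.64 for Cxcl9 (adjusted p = 0.00109), -2.23 for Gm12250 (0.000776), -1.35 for Esm1 (0.0411), -2.43 for Igtp (4.54e-05), -2.28 for Tgtp1 (2.99e-05), -1.65 for Gbp2 (0.00172), -1.27 for Gbp5 (0.00473) and -1.35 for Gm4951 (0.00583). These 8 genes were higher in implanted endothelium under PBS and their difference was smaller under cGAMP. Among the lower genes, Atp2a3, a calcium pump, changed by 1.28 (0.025) and Sidt1 by 1.47 (0.0177), again towards a smaller difference. The PBS values that chose these genes also enter this change.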

How the results depend on the processing

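Under PBS 1025 genes were called, 598 higher and 427 lower. The counts became 1974, 1210 and 764 with a pseudocount of 0.1; 2034, 1225 and 809 with voom on recovered reads; 6361, 2915 and 3446 with no fold limit; 3568, 147 and 3421 with endothelial centring; and 673 in all and 243 lower with a mean FPKM of at least 5, where 6910 genes were tested. Scaling by total reads shifted the median difference to -0.13 and called 457 higher and 592 lower, so 43.6% of calls were higher against 58.3%. Leaving out 1 library gave 944 to 1119 calls.

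Under cGAMP the counts of all, higher and lower calls became 2505, 1514 and 991 with the pseudocount; 910, 609 and 301 with the stricter filter; 2579, 1535 and 1044 with voom; 7122, 3636 and 3486 with no fold limit; 2321, 389 and 1932 with endothelial centring; and 554 higher and 899 lower with total reads. For the change between treatments they became 540 in all and 215 lower with the pseudocount; 222, 168 and 54 with the stricter filter; 1546, 1026 and 520 with no fold limit; 143 higher and 157 lower with total reads; 215 lower with voom; and 391 higher and 29 lower with endothelial centring.

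Endothelial centring moves all genes alike, so it turned every difference between 0 and 0.69 negative. Among named genes these were Mx1 (-0.39), Icam1 (-0.27), Calr (-0.32), Pdia3 (-0.45), Tnfrsf1a (-0.59), Casp8 (-0.12), Apaf1 (-0.07), Akt1 (-0.41), Pecam1 (-0.05), Cdh5 (-0.08), Ptprc (-0.22), Top2a (-0.34), Ifngr1 (-0.43), Ifngr2 (-0.53), Ifnar1 (-0.45), Ifnar2 (-0.36), Hif1a (-0.51), Cgas (-0.47), Cd14 (-0.34), Col4a1 (-0.14) and Lcn2 (-0.64). Quantile normalization and total reads gave -0.07 and -0.06 for Tnfrsf1a and -0.15 and -0.12 for Lcn2, and Lcn2 was between -0.08 and 0.21 when 1 tumour PBS library was left out, negative without implanted replicate 3 or MMTV-PyMT replicate 1. The cause was not tested.

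With the replicate number as a block, 598 genes were higher and 427 lower, and no list or named gene changed its call. Same-numbered libraries of the tumour types deviated together with correlations of -0.13, -0.06 and 0.02, and 1 of 3 implanted libraries correlated best with its own number, so the numbers do not pair the libraries.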

Other observations

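Complement and growth factor genes not described above also differed. Of 19 tested complement genes 5 were called higher in implanted endothelium, led by the C1 inhibitor gene Serping1 at 1.56 and C3 at 1.41, and Cd55 was lower at -1.06 (-0.92, not called, without implanted replicate 3). C3 was not called without implanted replicate 1 (1.19) or 3 (1.17). After endothelial centring none was called higher and 2 were called lower, and 2 or 3 of the list were called higher in the deposited scaling when implanted replicate 1 or 3 or MMTV-PyMT replicate 3 was left out. TGF-beta and BMP genes were split, with 4 of 28 called higher and 4 lower, and 1 higher and 9 lower after endothelial centring. Bmp2, a BMP ligand, was at 1.84, 1.32 and 1.02 FPKM in the MMTV-PyMT and at 19.1, 8.2 and 10.7 in the implanted libraries (difference 2.45, adjusted p = 7.36e-06, limma), while Id2, a target of BMP signals, was at 61.0, 70.9 and 86.1 against 36, 24.6 and 31.6.

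Klk10, a kallikrein-related peptidase on no list, had the second largest rise at 4.95: it was at 0.768, 3.49 and 1.49 FPKM in the MMTV-PyMT and at 93.6, 92.5 and 64.6 in the implanted libraries. Atp2a3 was at 41.2, 22.3 and 31.3 FPKM against 1.68, 1.86 and 2.61, and averaged 74.6 FPKM in normal fat pad endothelium, so here the implanted tumours stood apart from both other groups. Car4, a capillary carbonic anhydrase, was at 1.19, 1.69 and 1.60 FPKM against 13.6, 9.25 and 7.46, with normal endothelium at 9.81.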
